A study of Mus musculus with 56 samples.

Results

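The 9 genes described here, Rgs12, Brap, Ttbk1, Ktn1, Dnaja4, Acsl3, Tmem41b, Tnks1bp1 and Crybg2, were chosen by their measured values: each was called between the LL and PP genotypes in reads summed per gene, by an edgeR adjusted p below 0.05 and a fold of at least 1.3 or at most 0.7. They are 9 of the 34 genes that this rule called and of 52230 genes in all. Rgs12, Crybg2, Tnks1bp1, Tmem41b and Dnaja4 were called in mice without the glucokinase activator (GKA), and Brap, Ktn1, Ttbk1 and Acsl3 in mice with GKA. Values from the comparison that chose a gene are therefore a description, and tests are given only in the mice that did not choose it. The question was whether the reads of these genes differed because the genes made more or fewer RNA molecules, or because the mixture of long and short transcripts differed.

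The RNA came from livers of 56 male mice of the line GCKR-P446L-EMI-B6N, in which residue 446 of GKRP, the inhibitor encoded by Gckr that holds glucokinase in the hepatocyte nucleus, was either proline (P) or leucine (L). Every mouse, controls included, had 20 weeks of HFHSD, a diet rich in fat and sugar, with 45% of energy from fat and with 10% glucose and 5% fructose in the water. PP (n = 10), PL (n = 8) and LL (n = 10) mice had no GKA, and PP+GKA (n = 10), PL+GKA (n = 8) and LL+GKA (n = 10) mice had GKA at 3 mg/kg. PP mouse 7 was left out, which leaves n = 9 in PP and 55 mice in all. The substitution is in every cell of these mice and not in hepatocytes alone, and the labels name no litter, batch or time of day. The p-values of group differences below set each difference against the spread between these mice.

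Libraries held between 5189852 and 8093368 estimated reads, with a median of 6555851. The summed level of 5 hepatocyte markers (albumin and other secreted proteins) was between 68720 and 120600 CPM (reads of a gene scaled to the total of the library) in all 55 mice, against at most 486 CPM for 6 macrophage markers, 314 CPM for 6 stellate cell markers, 139.5 CPM for 5 endothelial markers, 95.4 CPM for 5 bile duct markers and 4.74 CPM for 6 B and T cell markers. The 5 blood markers summed to between 283.6 and 2939 CPM, and 5 of 5 were higher in LL than in PP (median log2 difference 0.56, with 2 at an unadjusted p below 0.05) and 4 of 5 in LL+GKA than in PP+GKA (median 0.63, with 0), and the part of blood in the results was not tested. Without GKA, 0 of 6 stellate, 0 of 5 endothelial and 0 of 2 tested bile duct markers were higher in LL. For macrophage and hepatocyte markers it was 2 of 6 and 2 of 5. With GKA the counts were 2 of 6, 3 of 5, 1 of 1, 0 of 6 and 2 of 5 in the same order. No marker was at 0 in a whole group, and none of these lists held a gene called between LL and PP. The mean fragment length of the libraries, read from the difference between the length and the effective length of long transcripts, was between 171 and 681 bases. In whole liver, fewer cells of a type and less RNA per cell cannot be told apart.

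A gene rarely makes a single RNA. Alternative start sites, skipped or included cassette exons, retained introns and alternative ends give transcripts of different lengths from the same locus. Those that share most of their exons can be told apart only by reads on the few bases or exon junctions that differ. A longer transcript yields more fragments per molecule, so the reads of a gene can change with its number of molecules, given here as TPM, the molecules of a transcript scaled to all molecules of the library, or with the mean length of its transcripts. The effective length is the number of positions at which a fragment of the library's size can start in a transcript.

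The genes have different roles. RGS12 is a regulator of G protein signalling that speeds the switching off of G protein alpha subunits, and its long form also has PDZ and PTB domains ahead of the RGS domain. BRAP is a RING-type ubiquitin ligase that restrains signalling from RAS to the MAP kinases. TTBK1 is a kinase of tau and tubulin known mainly from brain, and kinectin (Ktn1) is a coiled-coil protein of the endoplasmic reticulum (ER) that binds kinesin. DNAJA4 is a J protein, a partner of the HSP70 chaperones. ACSL3 activates long-chain fatty acids at the ER and on lipid droplets, and TMEM41B moves phospholipids between the leaflets of the ER membrane and is needed for autophagy and lipoprotein secretion. TNKS1BP1 binds tankyrase and the CCR4-NOT complex, which shortens poly(A) tails, and CRYBG2 is a protein with beta-gamma crystallin repeats.

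The annotation holds 18 transcripts of Rgs12, 26 of Ktn1, 13 of Crybg2, 9 each of Brap and Tmem41b, 8 of Tnks1bp1, 7 of Acsl3 and 3 each of Dnaja4 and Ttbk1. Of these, 29 transcripts held at least 5% of the reads of their gene on average over the 55 mice, and they are the ones named here. In all, 10 of the 29 had no exonic base of their own within that set: Rgs12-203, Tnks1bp1-201, Tmem41b-203, Dnaja4-203, Ktn1-205, Ktn1-209, Ktn1-201, Ktn1-202, Acsl3-203 and Acsl3-205. Exon junctions, which can also tell forms apart, were not counted. At the other end, Ttbk1-203 and Ttbk1-201 end on different last exons, with 6899 bases of Ttbk1-203 found in it alone. The exon models come from GENCODE vM39 (GRCm39), in which 15 of the 29 have the same version and length as in the deposited files, and Ttbk1-201, with 9900 exonic bases against 6959 in the files, is one of those that do not.

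**Figure D1:**
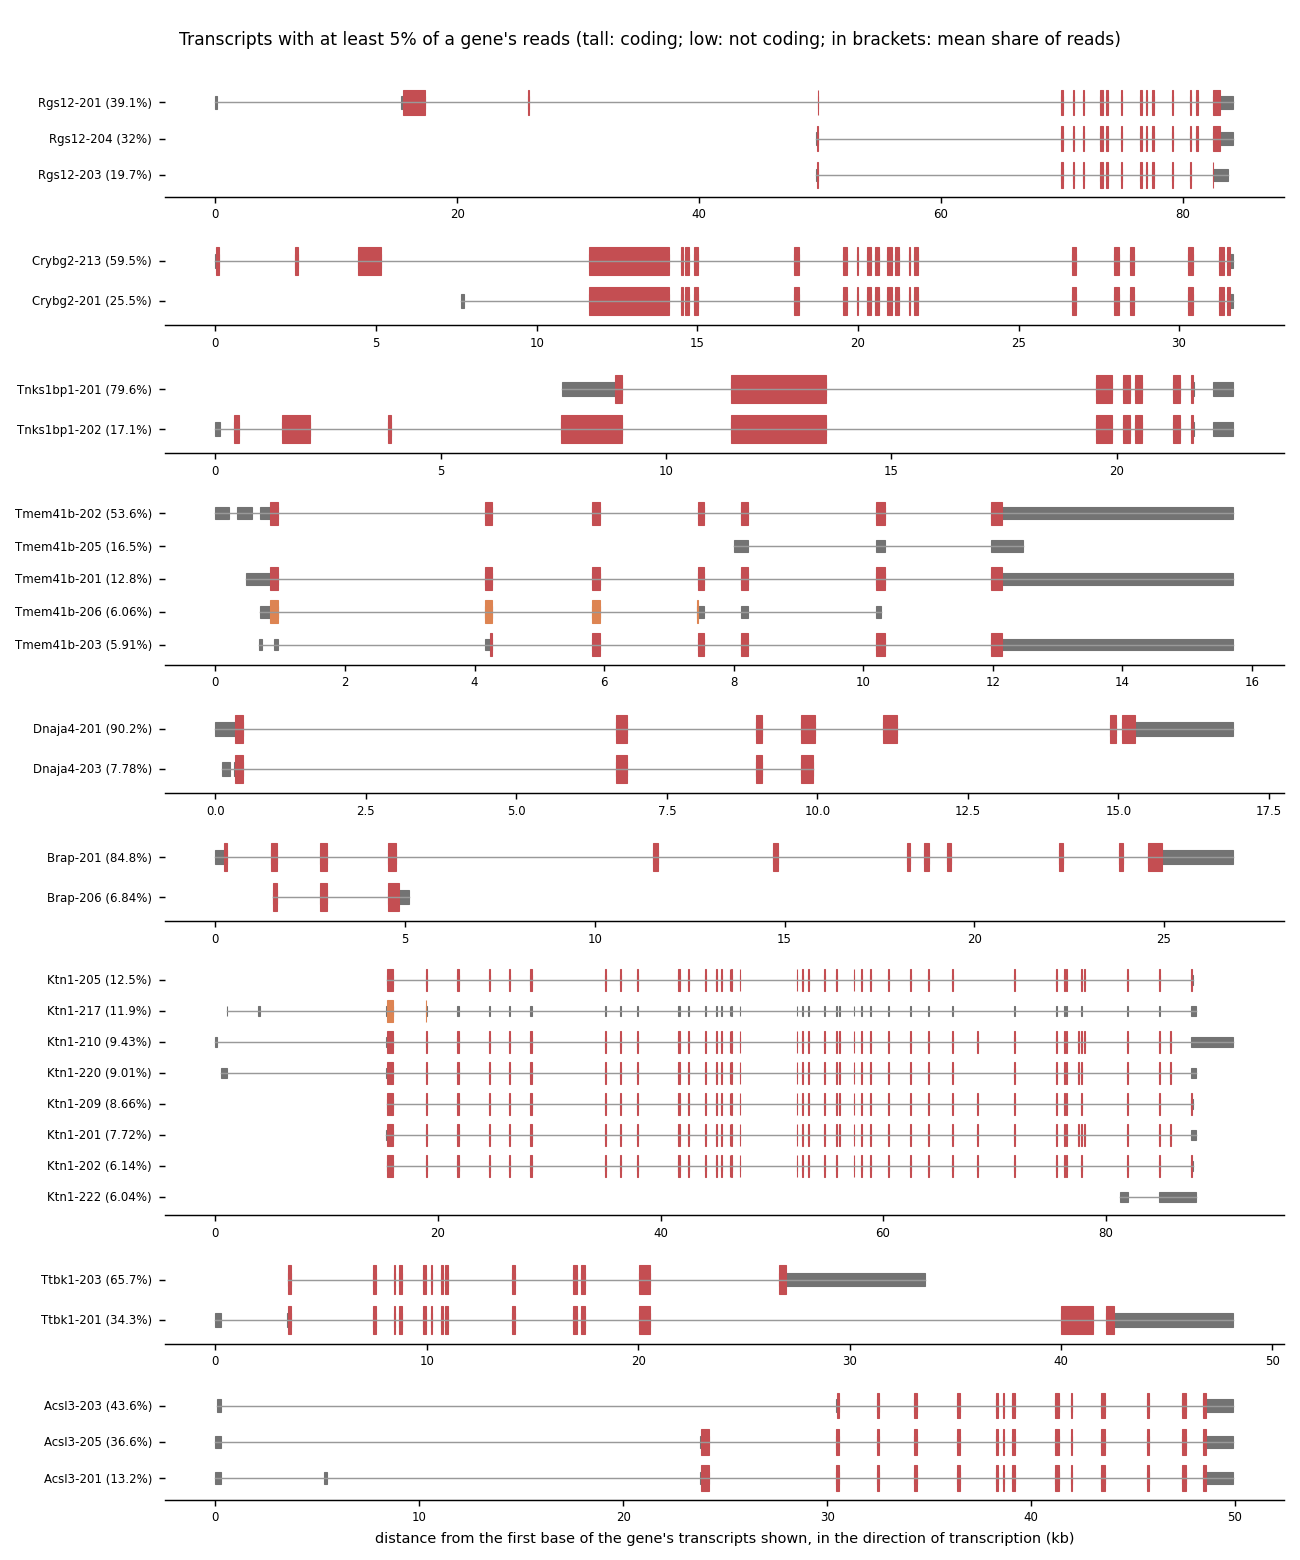
Exon maps of the 29 transcripts with at least 5% of the reads of their gene, drawn from 5′ to 3′ along the distance from the first base shown (kb), with coding parts tall in red (orange for nonsense-mediated decay transcripts), other exon parts low in grey, and the mean share of reads in brackets. The Ttbk1 forms part at their last exons, whereas the 6 coding Ktn1 forms share most of their many small exons.

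The sequences that tell the forms of each gene apart are printed from GRCm39, 5′ to 3′ on the strand of the gene, with exon bases in capitals and flanking intron or neighbouring bases in lower case. For the 2 signalling genes they are the coding exon of Rgs12-201 at chr5:35132561-35132677 (plus strand, 117 bases), absent from Rgs12-203 and Rgs12-204, and the coding exon of Brap-201 at chr5:121813293-121813441 (plus strand, 149 bases), which the short Brap-206 lacks.
Rgs12-201: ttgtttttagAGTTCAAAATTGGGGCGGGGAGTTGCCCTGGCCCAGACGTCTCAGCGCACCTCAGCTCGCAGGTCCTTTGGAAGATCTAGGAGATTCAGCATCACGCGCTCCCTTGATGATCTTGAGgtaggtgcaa
Brap-201: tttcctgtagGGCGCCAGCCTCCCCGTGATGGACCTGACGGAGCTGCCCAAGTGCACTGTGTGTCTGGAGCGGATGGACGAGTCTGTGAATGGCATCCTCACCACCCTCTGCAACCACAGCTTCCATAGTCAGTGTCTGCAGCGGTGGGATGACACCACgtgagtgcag

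Ttbk1 forms are separated by the first coding bases of their own 3′ parts, at chr17:46771869-46771958 for Ttbk1-203 and chr17:46758554-46758643 for Ttbk1-201 (minus strand, 90 bases each), which are shown because these 2 forms are well separated from each other.
Ttbk1-203: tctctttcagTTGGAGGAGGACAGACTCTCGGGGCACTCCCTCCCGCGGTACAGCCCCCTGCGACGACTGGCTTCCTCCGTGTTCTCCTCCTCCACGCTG
Ttbk1-201: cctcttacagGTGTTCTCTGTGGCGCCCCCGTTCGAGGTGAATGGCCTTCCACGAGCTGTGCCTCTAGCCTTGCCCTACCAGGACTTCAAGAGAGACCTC

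The coding forms of Ktn1 differ in part by 4 cassette exons of 69, 87, 72 and 84 bases, each a multiple of 3, at chr14:47941877-47941945, chr14:47954331-47954417, chr14:47963386-47963457 and chr14:47963928-47964011 (plus strand). These 4 exons are not the only coding difference between the forms. The first is in 4 of the 6 coding forms (Ktn1-201, Ktn1-209, Ktn1-210 and Ktn1-220), the second in 4 (Ktn1-201, Ktn1-202, Ktn1-209 and Ktn1-210), the third in 3 (Ktn1-201, Ktn1-210 and Ktn1-220) and the fourth in 3 (Ktn1-201, Ktn1-205 and Ktn1-210).
Ktn1 cassette 1: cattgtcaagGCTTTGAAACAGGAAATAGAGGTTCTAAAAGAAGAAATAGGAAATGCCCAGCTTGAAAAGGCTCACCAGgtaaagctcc
Ktn1 cassette 2: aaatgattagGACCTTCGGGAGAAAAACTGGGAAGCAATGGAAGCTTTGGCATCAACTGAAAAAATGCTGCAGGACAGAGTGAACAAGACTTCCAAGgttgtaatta
Ktn1 cassette 3: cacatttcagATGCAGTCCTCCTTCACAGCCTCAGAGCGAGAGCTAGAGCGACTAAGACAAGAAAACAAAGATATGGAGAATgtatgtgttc
Ktn1 cassette 4: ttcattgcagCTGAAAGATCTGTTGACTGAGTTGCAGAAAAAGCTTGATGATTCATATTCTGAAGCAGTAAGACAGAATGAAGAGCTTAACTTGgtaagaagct

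For the folding and lipid genes, the sequences are the coding exon of Dnaja4-201 at chr9:54621554-54621654 (plus strand, 101 bases), which Dnaja4-203 lacks, the last 90 bases of the start-codon exon of Acsl3-205 at chr1:78659638-78659727 (plus strand), which Acsl3-203 lacks, and a stretch of 115 intron bases kept in Tmem41b-205 at chr7:109578022-109578136 (minus strand). That start-codon exon holds 378 coding bases, and the N-terminal part of ACSL3 is known to anchor it in the ER and lipid droplet membrane.
Dnaja4-201: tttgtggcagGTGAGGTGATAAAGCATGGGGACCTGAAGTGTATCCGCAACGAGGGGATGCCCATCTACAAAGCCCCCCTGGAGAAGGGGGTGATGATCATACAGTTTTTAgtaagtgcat
Acsl3-205: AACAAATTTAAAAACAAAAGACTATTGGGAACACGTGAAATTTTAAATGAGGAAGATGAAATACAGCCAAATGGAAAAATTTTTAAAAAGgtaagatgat
Tmem41b-205: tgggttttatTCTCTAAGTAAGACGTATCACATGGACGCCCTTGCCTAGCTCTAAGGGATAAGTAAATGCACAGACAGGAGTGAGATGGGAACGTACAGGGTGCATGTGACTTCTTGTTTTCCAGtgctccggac

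The remaining pair are a coding exon of Tnks1bp1-202 at chr2:84884627-84884696, which the main form Tnks1bp1-201 lacks, and a coding exon of Crybg2-213 at chr4:133790614-133790683, which Crybg2-201 lacks (plus strand, 70 bases each).
Tnks1bp1-202: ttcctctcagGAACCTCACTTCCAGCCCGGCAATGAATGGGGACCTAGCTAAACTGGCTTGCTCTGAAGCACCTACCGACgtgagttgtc
Crybg2-213: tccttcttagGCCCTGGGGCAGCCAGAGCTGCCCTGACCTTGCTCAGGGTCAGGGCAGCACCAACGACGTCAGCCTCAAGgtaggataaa

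Reads per gene were first compared by group, in CPM with TMM scaling, from the lowest to the highest mouse. In the comparisons that chose the genes, 9 of 10537 genes tested were called without GKA (0.0854%), of which 5 are described here, and 25 of 10460 with GKA (0.239%), of which 4 are, and nothing is read from these counts, since the rule fixed them. Log2 differences are LL minus PP from edgeR with their SE, and a value in PL uses the same PP mice as the value in LL. Overlap of ranges was not counted over all genes, and in the comparison that chose a gene it is not independent of the choice.

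Rgs12 (chr5:35106748-35196988, plus strand) was between 1.27 and 2.73 CPM in PP (median 1.45), between 1.3 and 3.46 CPM in PL (median 2.49) and between 1.73 and 4.02 CPM in LL (median 3.53). All 10 LL mice were above the PP mean, and the ranges overlapped. The log2 difference was 1.02 (SE 0.18) in LL and 0.62 (SE 0.21) in PL. With GKA, in mice the rule did not use, Rgs12 had medians of 1.78 CPM in PP+GKA, 2.43 CPM in PL+GKA and 2.56 CPM in LL+GKA, between 1.22 and 3.28 CPM over the 3 groups. The difference in LL+GKA was 0.38 (SE 0.20, edgeR p 0.0675, Benjamini-Hochberg adjusted 0.536), with 7 of 10 mice above the PP+GKA mean, and it was 0.24 (SE 0.21, p 0.258) with a clock component, the first principal component of 16 clock genes, as a covariate. Whether the difference depended on GKA was not tested for any of the 9 genes.

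Brap (chr5:121798604-121825439, plus strand) had the most reads of the 9 genes and the smallest spread between mice. It was between 59.6 and 82.0 CPM in PP+GKA (median 68.0), between 79.4 and 95.6 CPM in PL+GKA (median 81.8) and between 83.2 and 110.1 CPM in LL+GKA (median 99.8). PP+GKA and LL+GKA did not overlap, and the log2 difference was 0.50 (SE 0.07), with PL+GKA at 0.27. Without GKA, where Brap was not chosen, PP mice were between 56.3 and 78.6 CPM (median 70.3), PL mice between 71.8 and 102.3 CPM (median 81.2) and LL mice between 77.8 and 103.6 CPM (median 85.9). Every LL mouse was above the PP mean, and the highest PP mouse lay just above the lowest LL mouse. The difference was 0.36 (SE 0.08, edgeR p 0.000178, adjusted 0.0674).

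Ttbk1 (chr17:46750462-46798630, minus strand) had few reads, with a median of 15.2 per mouse. It was between 0.726 and 2.53 CPM in PP+GKA (median 1.6), between 1.45 and 3.96 CPM in PL+GKA (median 2.45) and between 2.0 and 5.05 CPM in LL+GKA (median 3.73), and the difference in LL+GKA was 1.22 (SE 0.21). All 10 LL+GKA mice were above the PP+GKA mean, with some overlap of the ranges. Without GKA, PP, PL and LL had medians of 1.98, 2.09 and 2.59 CPM, and the difference in LL was 0.65 (SE 0.28, edgeR p 0.0273, adjusted 0.338), higher in 9 of 10 LL mice.

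Ktn1 (chr14:47885857-47977351, plus strand) was between 5.47 and 8.95 CPM in PP+GKA (median 7.73), between 5.54 and 11.5 CPM in PL+GKA (median 8.91) and between 9.46 and 12.6 CPM in LL+GKA (median 10.8). PP+GKA and LL+GKA did not overlap, and the difference was 0.53 (SE 0.09). Without GKA, PP, PL and LL had close medians, of 8.32, 9.08 and 8.81 CPM, with 5 LL mice above and 5 below the PP mean. The edgeR log2 difference was then -0.0018 (SE 0.13, p 0.989, adjusted 0.997).

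Dnaja4 (chr9:54606157-54623601, plus strand) was between 3.02 and 5.35 CPM in PP (median 4.26), between 1.5 and 4.41 CPM in PL (median 3.3) and between 1.15 and 3.4 CPM in LL (median 1.99). All 10 LL mice were below the PP mean, the ranges overlapped slightly, and the difference was -0.92 (SE 0.18). With GKA the medians were 2.95 CPM in PP+GKA, 2.69 CPM in PL+GKA and 2.57 CPM in LL+GKA, and again all 10 LL+GKA mice were below the PP+GKA mean. The difference was -0.40 (SE 0.19, edgeR p 0.0483, adjusted 0.479), and -0.17 (SE 0.19, p 0.375) with the clock component as a covariate.

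Acsl3 (chr1:78635537-78685460, plus strand) was between 10.4 and 19.9 CPM in PP+GKA (median 14.1), between 8.29 and 22.9 CPM in PL+GKA (median 15.6) and between 6.81 and 10.8 CPM in LL+GKA (median 9.29). All 10 LL+GKA mice were below the PP+GKA mean, and the difference was -0.73 (SE 0.12), against 0.05 in PL+GKA. Without GKA, Acsl3 spread widely within each genotype, between 8.91 and 26.4 CPM in PP (median 17.4), between 8.8 and 27.5 CPM in PL (median 11.4) and between 5.14 and 21.3 CPM in LL (median 8.63). The difference in LL was -0.57 (SE 0.27, edgeR p 0.0493, adjusted 0.42), and 7 of 10 LL mice lay below the mean of PP, but with the clock component as a covariate it turned to 0.10 (SE 0.30, p 0.741).

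Tmem41b (chr7:109570422-109586136, minus strand) was between 13.6 and 23.5 CPM in PP (median 19.2), between 9.01 and 19.5 CPM in PL (median 12.6) and between 7.32 and 15.0 CPM in LL (median 11.7). All 10 LL mice were below the PP mean, and the difference was -0.73 (SE 0.14), with PL at -0.49. With GKA the medians were 16.0, 15.7 and 12.0 CPM in PP+GKA, PL+GKA and LL+GKA, and 9 of 10 LL+GKA mice were below the PP+GKA mean. That difference was -0.38 (SE 0.11, edgeR p 0.00239, adjusted 0.166), and -0.25 (SE 0.11, p 0.0316) with the clock component as a covariate.

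Tnks1bp1 (chr2:84878366-84903392, plus strand) was between 14.7 and 22.1 CPM in PP (median 17.0), between 17.4 and 26.5 CPM in PL (median 23.4) and between 19.5 and 28.8 CPM in LL (median 24.1), a difference of 0.44 (SE 0.09) in LL. With GKA it was between 16.3 and 24.6 CPM in PP+GKA (median 18.6) and between 19.4 and 28.1 CPM in LL+GKA (median 22.9), and all 10 LL+GKA mice were above the PP+GKA mean. The difference was 0.33 (SE 0.08, edgeR p 0.000299, adjusted 0.0587). Crybg2 (chr4:133788126-133819818, plus strand) had medians of 2.97, 4.82 and 5.37 CPM in PP, PL and LL, a difference of 1.10 (SE 0.22) in LL and 0.88 in PL. With GKA it was between 0.697 and 6.34 CPM in PP+GKA (median 3.49), between 2.68 and 6.86 CPM in PL+GKA (median 5.38) and between 5.06 and 9.99 CPM in LL+GKA (median 7.19). All 10 LL+GKA mice were above the PP+GKA mean, and the difference was 1.04 (SE 0.24, edgeR p 0.000274, adjusted 0.0587).

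**Figure D2:**
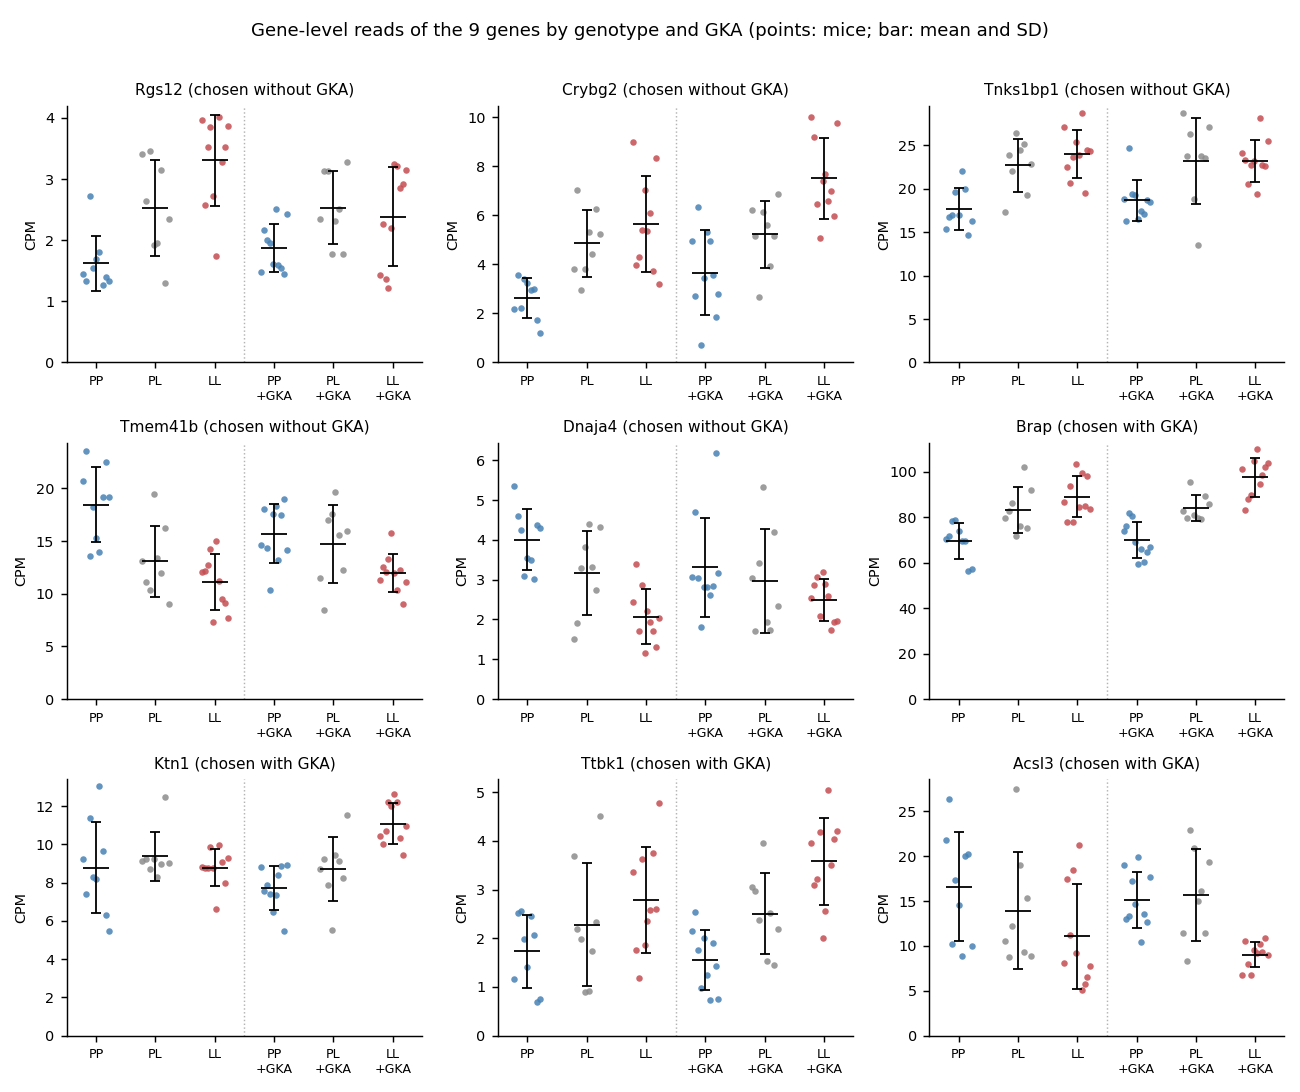
Reads of each of the 9 genes in CPM (vertical axis) in the 6 groups (horizontal axis), with 1 point per mouse, blue for PP, grey for PL and red for LL, and the mean with its SD in black. Ranges of PP+GKA and LL+GKA are apart for Brap and Ktn1, whereas Ktn1 has the same level in PP and LL without GKA.

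In the mice that did not choose them, none of the 9 genes was called in gene counts by edgeR on the groups compared, whereas Crybg2 with GKA was called by DESeq2 (log2 difference 1.03, adjusted p 0.00676) and by edgeR with all 6 groups in 1 fit (1.03, adjusted p 0.0142). The log2 difference went the same way as in the choosing mice for 5 of 5 genes with GKA and for 3 of 4 genes without GKA, the exception being Ktn1, and with the clock component as a covariate Acsl3 was an exception as well. An unadjusted p below 0.05 was reached by 4 of 5 genes with GKA, where 10.4% of all genes tested did so, and by 3 of 4 genes without GKA, where 11.8% did. The median absolute log2 difference was 0.38 over the 5 genes and 0.11 over all genes tested with GKA, and 0.46 over the 4 genes and 0.12 over all genes without GKA. In PL against PP in the same mice none was called either, and 3 of the 9 genes had an unadjusted p below 0.05: Rgs12 with GKA at 0.45 (SE 0.17, edgeR p 0.0164, adjusted 0.452), Tnks1bp1 with GKA at 0.32 (SE 0.12, p 0.0145, adjusted 0.441) and Brap without GKA at 0.25 (SE 0.09, p 0.00873, adjusted 0.284). The other 6 had adjusted p between 0.71 and 0.925 and log2 differences between -0.24 for Acsl3 and 0.50 for Crybg2.

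How steadily reads were divided between transcripts differed from gene to gene. Brap-201, the full-length form, held a mean of 84.8% of the Brap reads, and Brap-206, a short form, held between 3.28% and 10.7%. Dnaja4-201 held 90.2% and Tnks1bp1-201 79.6% on average, between 58.2% and 100% and between 41.2% and 98.3% of the reads in single mice. For these 3 genes the same form led in reads in nearly every liver. By share of TPM, the medians in PP and LL without GKA were 100% and 39.9% for Dnaja4-201. They were 50.6% and 58.2% for Brap-201 and 63.1% and 78.6% for Tnks1bp1-201.

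For Crybg2, Rgs12, Acsl3 and Ktn1 the leading form depended on the mouse. Crybg2-213 held all or nearly all of the reads (over 90%) in 17 of 55 mice and no read in 11, and Crybg2-201, which has 85 exonic bases of its own, ranged from 0 to 100%. Rgs12-201, which includes the exon printed above, had a mean share of 39.1% with 7 mice at 0, while Rgs12-204 and Rgs12-203 were at 0 in 26 and 32 mice. Acsl3-203 and Acsl3-205, which differ by the start-codon exon, had mean shares of 43.6% and 36.6%, and each was at 0 in 18 mice. No form of Ktn1 led: the highest mean share was that of Ktn1-205, at 12.5%, and it was at 0 in 37 of 55 mice. Tmem41b-202 had a mean share of 53.6%, between 0 and 93.2%, and was at 0 in 7 of 55 mice. Ttbk1-203 had a mean share of 65.7%, between 19.0% and 100%. The swings were seen between mice of the same group, although no LL mouse was at 0 for Crybg2-213 (lowest 11.5%) or Rgs12-201 (lowest 7.63%), and no LL+GKA mouse for Acsl3-203 (lowest 29.2%).

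The number of reads sets how well a share is known. At the median of 15.5 reads per mouse of Rgs12, a share of 50.0% has a 95% Wilson interval from 28.0% to 72.0%. For Ttbk1, near 46.7% of 15.2 reads, the interval is from 24.8% to 69.9%, and for Brap, at 543.9 reads, from 45.8% to 54.2%. These intervals cover counting error only, and not the error of dividing reads between transcripts that share bases.

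In the comparisons that chose them, several genes had shares that differed in mean. Acsl3-203 held 33.5% ± 29.9 (SD) of the reads in PP+GKA and 65.7% ± 16.6 in LL+GKA, and Acsl3-205 47.9% ± 37.2 and 13.9% ± 21.4. Acsl3-205 had a mean of 7.83 CPM (here without TMM scaling) in PP+GKA and 1.4 in LL+GKA, and Acsl3-203 had 4.71 and 5.89. Acsl3-201, which also has the printed start-codon exon, had 1.84 and 1.19. The lower mean reads were thus assigned mainly to Acsl3-205, with SDs between mice of 6.85 and 2.51 CPM. For Acsl3-203 the SDs were 4.68 and 1.98 CPM. Neither form has an exonic base of its own among the named transcripts, so this division of reads is uncertain. Without GKA the mean shares were 38.3% in PP and 41.6% in LL for Acsl3-203 and 45.7% and 38.0% for Acsl3-205. There the lower mean reads were assigned to Acsl3-203, at 6.91 ± 7.2 (SD) CPM in PP and 2.84 ± 2.72 CPM in LL. Acsl3-205 was at 7.21 ± 6.26 and 6.83 ± 8.64 CPM.

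Crybg2-213 had a mean share of 46.5% ± 46.8 in PP and 75.3% ± 30.1 in LL without GKA, as a description, and was at 51.0% ± 45.9 in PP+GKA and 59.2% ± 36.3 in LL+GKA. Rgs12-204 held 29.8% ± 36.0 in PP and 50.7% ± 35.8 in LL, and Dnaja4-203, the short form, 6.4% ± 14.3 and 14.0% ± 12.7. Ttbk1-203 held 67.0% ± 13.3 in PP+GKA and 68.9% ± 6.37 in LL+GKA. Each SD is between mice, and in each of these comparisons the range within either group was wider than the difference in means.

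**Figure D3:**
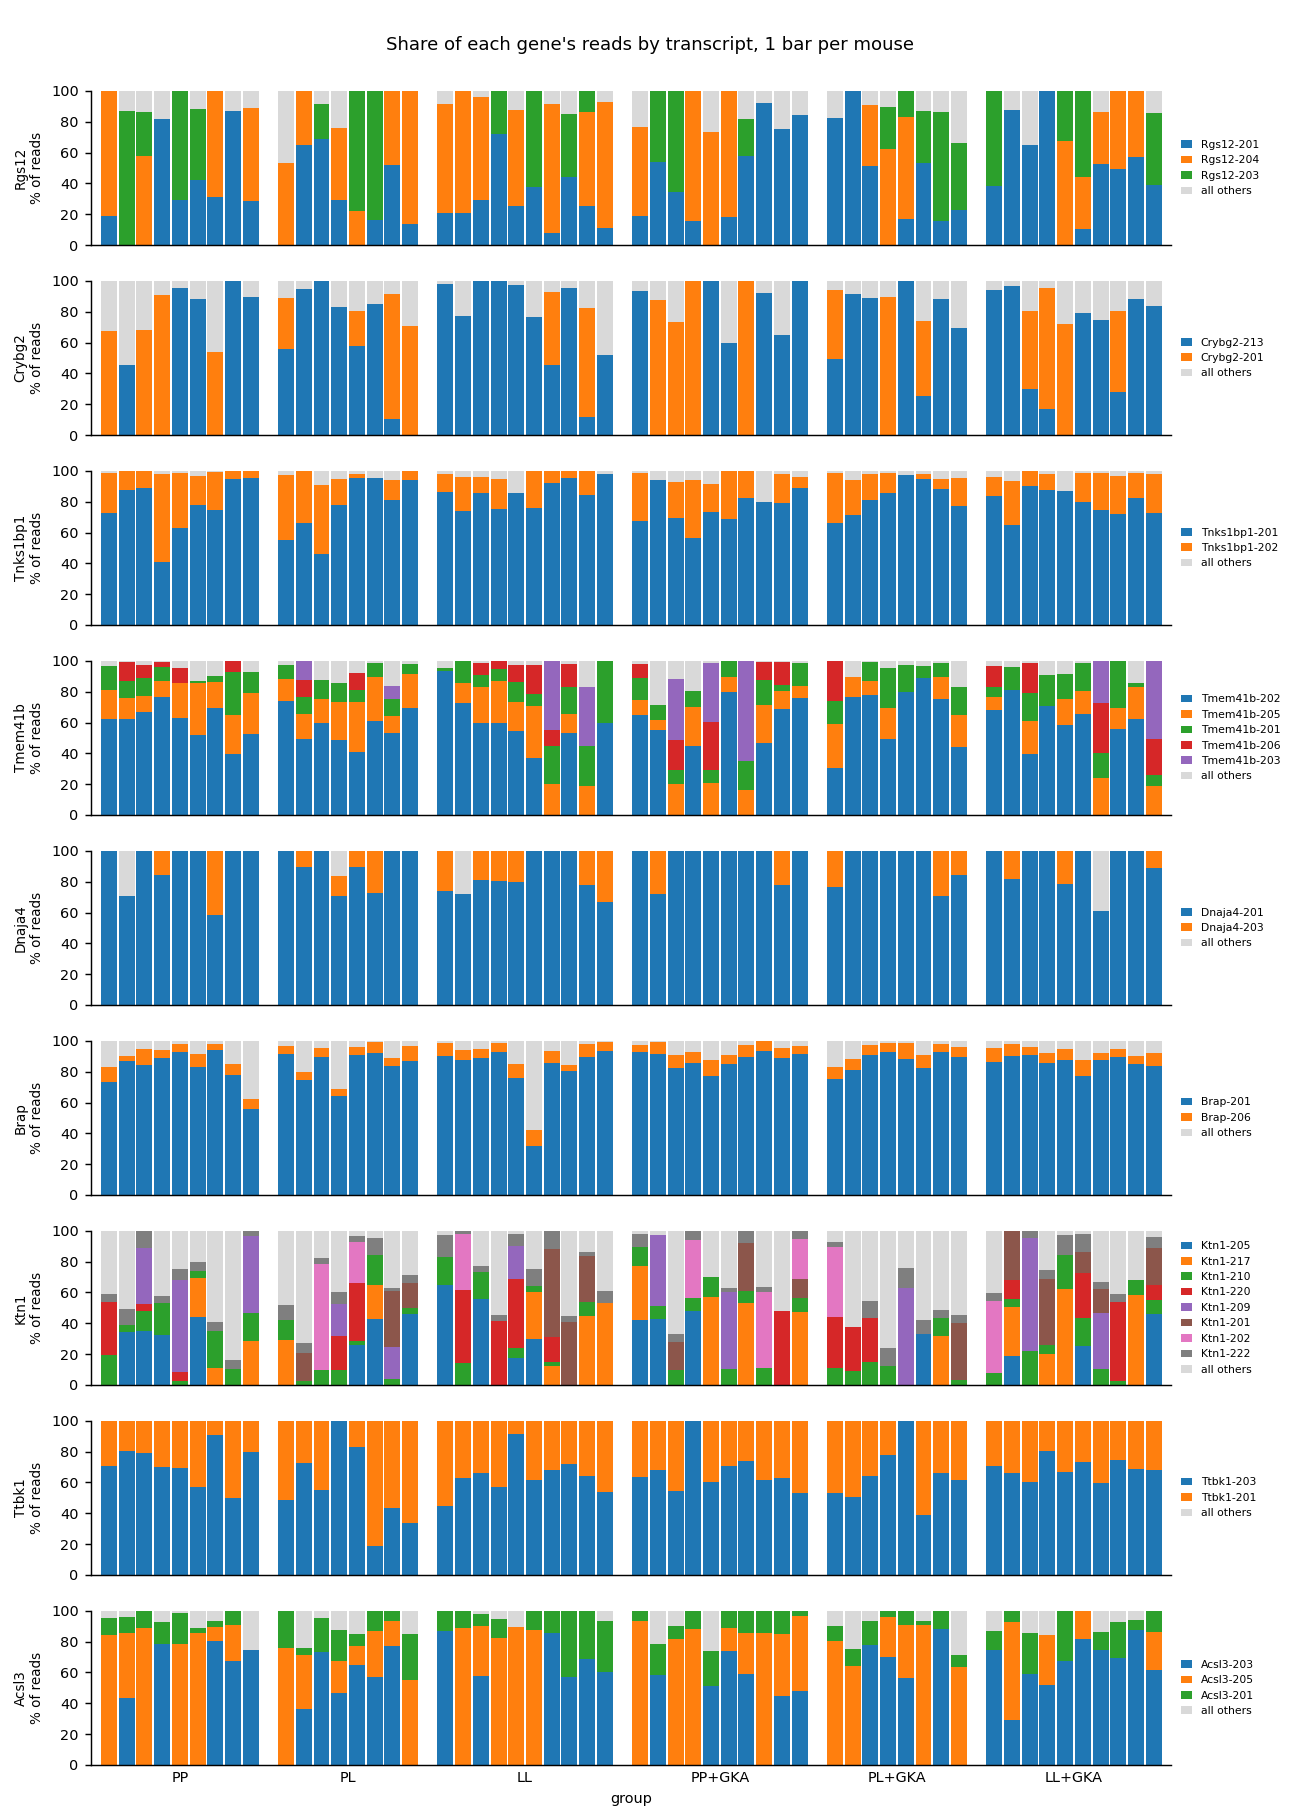
Share of the reads of each gene (percent, vertical axis) given to each named transcript, with 1 bar per mouse, mice grouped by genotype and GKA along the horizontal axis, and all other transcripts in light grey. Brap-201, Dnaja4-201 and Tnks1bp1-201 fill most of each bar, whereas the bars of Crybg2, Rgs12, Acsl3 and Ktn1 change from one form to another between mice of the same group.

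In mice that the rule did not use, the share of the leading transcript was compared by two-sided permutation tests (exact where a group had under 10 mice), for 9 genes in LL against PP and 9 in PL against PP. None of the 9 differences in LL had p below 0.05. The smallest p was for Ttbk1-203 without GKA, at 64.2% ± 12.4 in LL (SD, n = 10) and 74.0% ± 10.7 in PP (n = 7, after mice with under 5 reads were left out), a difference of -9.72 points (SE 5.62, exact p 0.115). The other 8 had p between 0.446 and 0.967, with differences between -4.0 points (SE 5.40, Dnaja4-201) and 6.58 points (SE 13.6, Tmem41b-202). In PL none of the 9 passed, and the smallest p was for Tmem41b-202 with GKA, at 65.3% ± 20.9 in PL+GKA and 43.5% ± 32.1 in PP+GKA (exact p 0.116). The SE of a difference in LL was between 4.35 points for Tnks1bp1-201 and 18.8 points for Crybg2-213, so that shifts of that size would not have been told from the spread between mice.

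A test over transcripts (edgeR diffSpliceDGE, gene-level F test, Benjamini-Hochberg adjusted over all genes tested) asked whether the transcripts of a gene changed unequally. It called 0 of 3757 genes without GKA (0.0%, and 2.85% at an unadjusted p below 0.05) and 2 of 3507 genes with GKA (0.057%, and 2.22% at an unadjusted p below 0.05). In the mice that did not choose them, 4 of the 9 genes had 2 or more transcripts with enough reads, and none was called: with GKA the p was 0.787 for Tnks1bp1 and 0.812 for Tmem41b, and without GKA 0.498 for Brap and 0.708 for Acsl3, with adjusted p of at least 0.9996. The other 5 genes did not enter this test in those mice.

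Reads were then split exactly, on the log2 scale, into TPM, mean effective length and a term of the library that is the same for every gene. That library term differed between LL and PP by -0.15 (SE 0.23) without GKA and by 0.19 (SE 0.17) with GKA. Within groups, the SD between mice of the reads was smaller than that of TPM for all 9 genes, and smaller than that of the mean length for all but Ttbk1. For Brap the within-group SDs were 0.19 for reads, 0.66 for TPM and 0.52 for length, for Crybg2 0.59, 1.4 and 1.32, and for Rgs12 0.41, 1.01 and 0.99. Ttbk1, whose forms end on different exons, had 0.60 for reads, 0.79 for TPM and 0.06 for length.

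In the comparisons that chose the genes, the difference in reads was met by different parts. For Ttbk1 with GKA, a difference of 1.27 in reads (SE 0.25) came with 1.08 in TPM (SE 0.24) and 0.0029 in length (SE 0.02), and Ttbk1 was at a median of 0.102 TPM in PP+GKA and 0.261 TPM in LL+GKA. For Dnaja4 without GKA, a difference of -1.0 in reads (SE 0.20) came with -0.21 in TPM (SE 0.29) and -0.64 in length (SE 0.35), with medians of the mean effective length of 2514 bases in PP and 1262 bases in LL. The TPM of Dnaja4 had medians of 1.08 in PP and 0.812 in LL.

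Rgs12 and Crybg2 without GKA had parts of similar size: 0.58 in TPM (SE 0.47) and 0.56 in length (SE 0.42) for Rgs12, and 0.50 in TPM (SE 0.65) and 0.74 in length (SE 0.67) for Crybg2. For Tnks1bp1 the TPM part was 0.72 (SE 0.32) and the length part -0.14 (SE 0.16), and for Tmem41b they were -0.56 (SE 0.46) and -0.05 (SE 0.35). With GKA, Brap had 0.28 in TPM (SE 0.20) and 0.01 in length (SE 0.18), Ktn1 0.41 (SE 0.27) and -0.07 (SE 0.22), and Acsl3 -0.57 (SE 0.29) and -0.36 (SE 0.35). The SE of the length part was at least 0.16 for every gene except Ttbk1, and it was larger than the part itself for Tnks1bp1, Tmem41b, Brap, Ktn1 and Ttbk1.

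**Figure D4:**
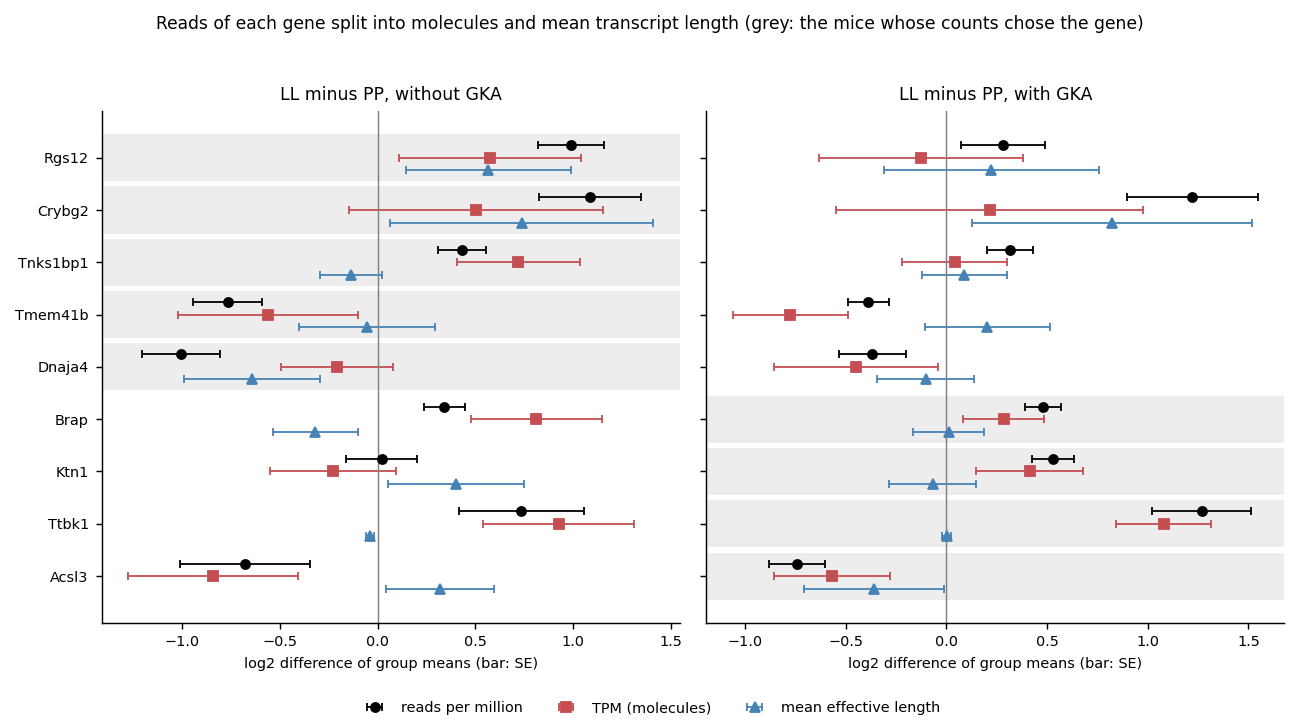
Log2 difference between LL and PP means (horizontal axis, bars are SE) in reads scaled to the library total (black circles), TPM (red squares) and mean effective length (blue triangles) for each gene, without GKA on the left and with GKA on the right, with grey bands where the gene was chosen in those mice. The bars of reads are short, and those of TPM and length are long, except for the length of Ttbk1.

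In mice that the rule did not use, the mean effective length differed with a permutation p below 0.05 for 1 of 9 genes in LL, Ttbk1, and for 0 of 9 in PL (smallest exact p 0.109). Ttbk1 without GKA had a mean effective length between 7422 and 8147 bases over all 9 PP mice (median 7902) and between 7270 and 8084 bases in LL (median 7634). These ranges overlapped over most of their span, and the log2 difference over all 9 PP mice was -0.04 (SE 0.02). In the mice tested, n = 7 and 10 after the minimum of 5 reads, it was -0.05 (SE 0.02, exact p 0.0284). With no minimum of reads the exact p was 0.0683, with PP mouse 7 kept 0.0522, and with annotated in place of effective length 0.117. The p-values of the other 8 genes were between 0.178 and 0.697.

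Across all genes, limma on the mean effective length called 0 of 8800 genes without GKA (0.0%, and 8.3% at an unadjusted p below 0.05) and 0 of 8832 with GKA (0.0%, and 2.99% at an unadjusted p below 0.05). Of the genes in mice that did not choose them, 5 of 5 with GKA and 3 of 4 without GKA entered this fit, Ttbk1 having too few reads, and 0 had an unadjusted p below 0.05.

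Output corrected for length was tested with edgeR, with the mean effective length of each gene in each mouse as an offset. This called 2 of 10537 genes without GKA (0.019%, and 12.3% at an unadjusted p below 0.05) and 0 of 10460 with GKA (0.0%, and 7.19% at an unadjusted p below 0.05). None of the 9 genes was called in the mice that did not choose it. Without GKA, 3 of 4 had an unadjusted p below 0.05: Brap, with a log2 difference of 0.76 (SE 0.22, edgeR p 0.0024, adjusted 0.235), Acsl3 with -0.92 (SE 0.30, p 0.00616, adjusted 0.262) and Ttbk1 with 0.74 (SE 0.31, p 0.0264, adjusted 0.354). Keeping PP mouse 7 moved Brap to 0.48 (SE 0.27, edgeR p 0.0919) and Ktn1 from -0.47 (SE 0.30, p 0.137) to -1.68 (SE 0.61, p 0.0118). With GKA, 1 of 5 did, Tmem41b with -0.70 (SE 0.25, edgeR p 0.0118, adjusted 0.535). Crybg2, at 1.04 in reads in those mice, was at -0.45 (SE 0.67) after the correction, and Tnks1bp1, at 0.33 in reads, was at 0.19 (SE 0.19).

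Very short transcripts carried much of the TPM in some mice. The examples that follow are the transcript with the highest share of TPM in the mouse with the shortest mean length of each gene, and most were chosen after their values were seen. In PL mouse 22, Brap-207, a retained-intron transcript of 492 bases, had an effective length of 27.4 bases, 6.83% of the Brap reads and 84.6% of the Brap TPM. Its 38.6 reads took the mean effective length of Brap to 339 bases, against a median of 2178 bases over all mice, and the Brap TPM to 77.6. In PP mouse 9, a single read on Rgs12-217 was 13.1% of the Rgs12 reads and 93.9% of its TPM.

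In PL+GKA mouse 29, Dnaja4-203 held 23.5% of the Dnaja4 reads and 82.8% of the TPM. In LL mouse 42, Tmem41b-205, with the intron stretch printed above, held 34.3% of the Tmem41b reads and 59.7% of the TPM. The same happened for Crybg2-206 (7.58% of reads, 77.4% of TPM) in PP+GKA mouse 19, Ktn1-211 (19.4% and 77.5%) in PP mouse 9, Acsl3-204 (4.9% and 52.1%) in PL mouse 22 and Tnks1bp1-204 (2.43% and 47.2%) in PP+GKA mouse 18. Ttbk1 has no short transcript among its 2 forms, and its shortest mean length, in PL mouse 26, was 6819 bases.

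The mean effective length of several genes followed the fragment length of the library. Over 55 mice, the correlation of the log2 mean effective length with the fragment length was r = -0.592 for Brap (Spearman rho -0.714, permutation p 1e-05 for each, the smallest that 100000 resamples can give, for 9 genes tested), and r = -0.549 without the 2 mice farthest from the median fragment length. For Tmem41b r was -0.569 (rho -0.581, permutation p 2e-05 for each, and r = -0.519 without those 2 mice), and for Acsl3 -0.442 (rho -0.458, permutation p 0.00066 and 0.00048, and r = -0.366). Dnaja4 had r = -0.313 and rho = -0.544 (permutation p 0.0195 and 2e-05), and Rgs12 r = -0.0205 and rho = 0.035 (permutation p 0.882 and 0.8). Tnks1bp1 had r = -0.328 (rho -0.294, permutation p 0.0141 and 0.0285) and Ttbk1 r = -0.314 (rho -0.265, permutation p 0.0192 and 0.0501). Crybg2 had r = -0.244 (rho -0.286, permutation p 0.072 and 0.0356) and Ktn1 r = -0.176 (rho -0.315, permutation p 0.197 and 0.0192). Both quantities use the fragment length of the library, since effective lengths are computed from it, so the 2 axes share a source.

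Mean fragment lengths were 439.6 ± 122 bases in PP, 492.6 ± 99.0 in LL, 442 ± 135.5 in PP+GKA and 464.7 ± 79.6 in LL+GKA. With fragment length as a covariate, the reads of the 5 genes chosen without GKA differed by 1.07 (Rgs12), 1.11 (Crybg2), 0.43 (Tnks1bp1), -0.74 (Tmem41b) and -0.90 (Dnaja4), and 0 of the 5 were called, at edgeR adjusted p between 0.0524 and 0.0557. All 4 genes chosen with GKA were called under that covariate. These fits use the mice that chose the genes, so their calls are a description and not a further test. In the mice that did not choose the genes, mean length and composition were also fitted with this covariate. Over those fits and the gene counts, 20 values kept their sign or reading, and 1, the gene counts of Ktn1, changed sign. The part of fragment length in the differences of TPM was not tested.

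**Figure D5:**
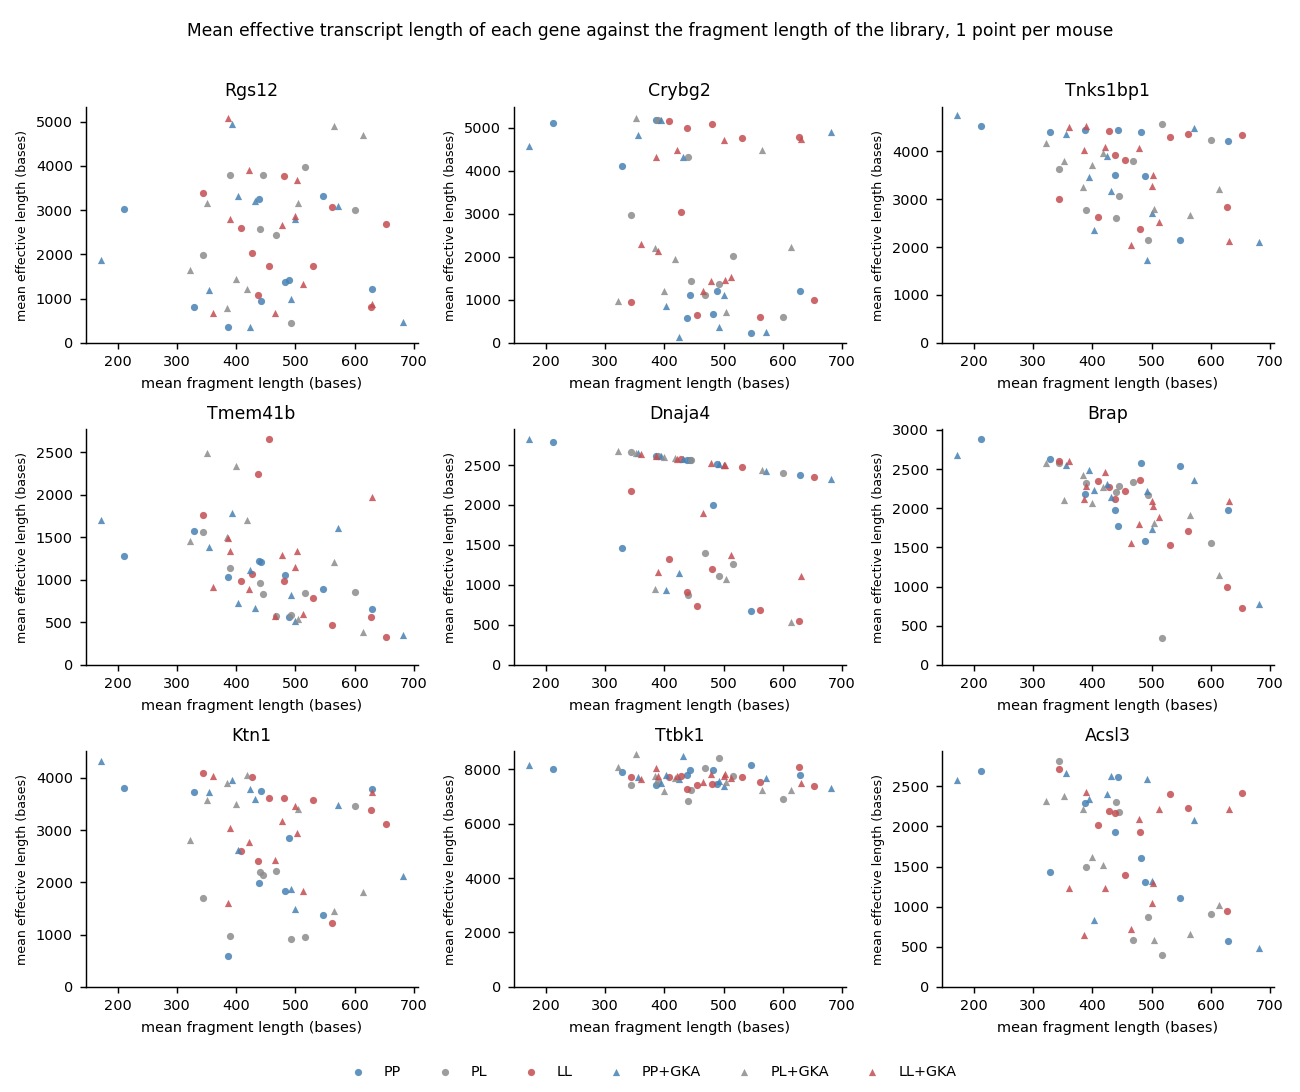
Mean effective transcript length of each gene (bases, vertical axis) against the mean fragment length of the library (bases, horizontal axis), with 1 point per mouse, coloured by genotype, circles without GKA and triangles with GKA. Lengths of Brap, Tmem41b and Acsl3 fall towards libraries with long fragments. Those of Ttbk1 lie between 6819 and 8575 bases, with a weaker negative correlation (r = -0.314).

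Exons of other genes overlap some of the 9, and the labels and methods do not say whether reads were assigned by strand. Skic8, on the other strand, shares 1583 exonic bases with Dnaja4 and was at 32.2 ± 3.5 CPM in PP and 34.5 ± 3.95 CPM in LL, more reads than Dnaja4, with a log2 difference of 0.10 (SE 0.08) without GKA and 0.02 (SE 0.10) with GKA. Acad10, also opposite, shares 422 bases with Brap and differed by 0.24 (SE 0.12) without GKA and by -0.0040 (SE 0.11) with GKA. Utp14b, on the same strand as Acsl3, shares 842 bases with it and had a log2 difference in LL of -0.50 (SE 0.23, edgeR p 0.0405, adjusted 0.394) without GKA and -0.57 (SE 0.21, p 0.0111, adjusted 0.293) with GKA. Cd52 shares 172 bases with Crybg2, at -0.06 (SE 0.28) and -0.12 (SE 0.24), and Gm43791 with Rgs12 and Gm5093 and Gm47119 with Ttbk1 had group means of at most 0.625 CPM. No exon of another gene overlaps Ktn1, Tmem41b or Tnks1bp1 in the annotation. The division of reads between these genes and the 9 is uncertain, and its part in the differences was not tested.

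Genes of the same families and pathways were taken from lists, and none was called by edgeR in either comparison. Of 13 other J proteins, 13 were tested without GKA and 12 with GKA, and 5 in each had an unadjusted p below 0.05, where 11.8% and 10.4% of all genes tested did so, all lower in LL: Dnajb11, Dnajb1, Dnajb9, Dnajb2 and Dnaja1, which are named because they are few and after their values were seen. Dnajb9, a J protein of the ER lumen, had a log2 difference of -0.99 (SE 0.25, edgeR adjusted p 0.109) without GKA and -0.64 (SE 0.17, adjusted 0.104) with GKA. The median log2 difference of the J proteins was -0.17 without GKA and -0.12 with GKA, against 0.01 and 0.0020 over all genes tested.

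Of 18 other RGS genes, 4 were tested, and Rgs16 had 1.24 (SE 0.41, edgeR p 0.00671, adjusted 0.208) without GKA and 1.07 (SE 0.50, p 0.0456, adjusted 0.472) with GKA, also named after its values were seen. The study, using DESeq2, listed Rgs16 among the genes raised by the LL genotype on HFHSD. The counts that follow stand against the same 11.8% without GKA and 10.4% with GKA. Of 6 other long-chain acyl-CoA synthetases 3 were tested, with 1 at an unadjusted p below 0.05 without GKA and 0 with GKA. All 10 listed VTT-domain scramblases and partners of TMEM41B were tested, with 2 and 1 at an unadjusted p below 0.05. All 7 genes of tankyrase and CCR4-NOT were tested, with 0 in either comparison. Of the 10 RAS-MAPK partners of BRAP 9 were tested, with 1 and 2, and of the 9 kinesin and ER membrane partners of kinectin 6, with 1 and 1. Ttbk2 and Mapt (1 tested without GKA, 2 with GKA) and the 2 other beta-gamma crystallin genes had 0.

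The genes sat at different distances from the threshold that chose them. Without GKA the adjusted p of Crybg2 was 0.0498, just inside, and that of Slc19a2, a thiamine transporter with a log2 difference of -0.63 (SE 0.13), was 0.0532 by edgeR, just outside. With GKA, the highest edgeR adjusted p among the 4 genes was 0.0144, that of Ktn1 and Ttbk1, with other called genes between it and the threshold, and Slc23a2, a vitamin C transporter at 0.52 (SE 0.11), was just outside at 0.0515. Among the 9 genes, the smallest differences were those of Tnks1bp1, 0.44, and Brap, 0.50.

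The clock component was at -0.629 ± 0.561 in PP and 0.518 ± 0.782 in LL, and at -0.886 ± 1.3 in PP+GKA and 0.0293 ± 0.754 in LL+GKA. With it as a covariate, the log2 differences without GKA were 0.79 for Rgs12, 0.97 for Crybg2, 0.29 for Tnks1bp1, -0.55 for Tmem41b and -0.82 for Dnaja4, and 0 of the 5 were called. With GKA they were 0.45 for Brap, 0.50 for Ktn1, 1.33 for Ttbk1 and -0.77 for Acsl3, and 3 of the 4 were called, Ktn1 having an edgeR adjusted p of 0.0508. Both comparisons use the mice that chose the genes, so these calls are a description.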

How the data were processed

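Livers of 56 mice (RNA integrity number above 6) were sequenced by the authors, who checked reads with FastQC, did not trim and ran Salmon 1.4.0 against GENCODE M26 transcripts (GRCm39). The files deposited by the authors hold, for 139225 transcripts per mouse, Salmon's estimated counts (not normalised), TPM (scaled by Salmon to effective length and library), length and effective length. Transcripts were assigned to genes by identifier in GENCODE vM39 (137570 matched, 52230 genes, at least 99.8% of reads), and exons and sequences come from that annotation and GRCm39. Estimated counts were summed per gene, rounded and tested with edgeR 4.0.16 (quasi-likelihood, TMM, filterByExpr) in R 4.3.3, on the 2 groups compared, with Benjamini-Hochberg adjustment. Mean length was weighted by TPM, and tested with limma 3.58.1, each mouse centred on its median, in genes with at least 5 reads in every mouse. Single values were compared by permutation with SciPy 1.17.1 (100000 resamples, or exact). PP mouse 7 was left out as in the study. No pair of mice in a group (236 pairs) agreed within sampling noise, the lowest chi-square per degree of freedom being 12.35. The fits were tested on simulated data. Named were the 9 genes, transcripts with at least 5% of a gene's reads, genes with overlapping exons, the first gene outside each threshold and list genes that were called. The genes, lists and tests were chosen with earlier results of these data known. Alternatives were DESeq2 1.42.0, other filters, all 6 groups in 1 fit, TPM on a log2 scale with a pseudocount of 0.1 or 1, voom or Simes tests of composition, annotated length, the clock component as a covariate and PP mouse 7 kept, and, after seeing the data, fragment length as a covariate and coding transcripts merged. Protein sequences were not used here.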

Additional observations from a re-analysis of the deposited data

Results flagged for a closer look

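In 162 groups of mice (9 genes, 6 groups, and reads, leading share and mean effective length), 10 held a mouse farther from the others than Dixon's 95% critical value, where chance flags about 5% of groups. They are given as values, and their causes were not tested.

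Of the 10, 4 concern Brap. The mean effective length of Brap was 339 bases in PL mouse 22, with 1553 bases in the next mouse, and 781 bases in PP+GKA mouse 15, with 1736 bases in the next. The share of Brap reads on Brap-201 was 31.5% in LL mouse 42, with 75.9% in the next mouse, and 77.2% in LL+GKA mouse 52, with 83.7% in the next. The reads of Brap in these mice were not set apart from their groups by the same measure.

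Mean effective length of Tnks1bp1 was 2138 bases in PP mouse 8, with 3484 bases in the next mouse, and its reads were 24.6 CPM in PP+GKA mouse 13, with 19.4 CPM in the next. Reads of Rgs12 were 2.73 CPM in PP mouse 3, with 1.81 CPM in the next, and reads of Ktn1 were 12.5 CPM in PL mouse 27, with 9.24 CPM in the next.

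Ktn1-205 held 32.9% of the Ktn1 reads in PL+GKA mouse 34 and 0 in the other mice of that group. Ttbk1-203 held 100% of the Ttbk1 reads in PP+GKA mouse 14, with 74.2% in the next mouse.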

How the results depend on the processing

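No paired analysis was possible because mouse numbers run from 1 to 56 and no group shares one with another. Groups have 8 to 10 mice, and no replicate was left out in turn.

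Genes called in counts without GKA (9) became 109 with DESeq2, 65 with all 6 groups in 1 fit, 26 with PP mouse 7 kept, 1 with no filter, and 0 with the clock component (1765 at an unadjusted edgeR p below 0.05) or fragment length (1252) as a covariate. With GKA (25) they became 87 with DESeq2, 45 with 6 groups and 10 with the clock component. Of the genes described, DESeq2 and the 6-group fit called all 5 without GKA, and 4 and 3 of 4 with GKA, no filter left 0 of 5 without GKA, and keeping PP mouse 7 left 4 of 5, without Tmem41b (edgeR adjusted p 0.0525). These calls are in the comparisons that chose the genes, and they describe only how the choice depends on the processing.

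In the mice that did not choose them, Crybg2 passed the adjusted threshold with DESeq2 (adjusted p 0.00676) and 6 groups (edgeR, 0.0142), Tnks1bp1 with DESeq2 (0.0255), and Brap with DESeq2 (0.0024), 6 groups (edgeR, 0.00768) and PP mouse 7 kept (edgeR, 0.0431), the last 2 genes at a fold below 1.3. The log2 difference changed sign for Acsl3 with the clock component (0.10) and for Ktn1 with fragment length (0.0081).

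Length-corrected calls without GKA (2) became 1 on log2(TPM + 0.1), 4 on log2(TPM + 1) and 1 with no filter, and on log2(TPM + 0.1) with GKA Rgs12 changed sign to -0.0624 and Crybg2 to 0.10. Composition calls became 8 without GKA (from 0) and 5 with GKA (from 2) with limma voom, and with GKA 0 by the Simes test (21 at an unadjusted edgeR p below 0.05), 0 with transcripts of at least 5% of reads (61) and 4 with fragment length as a covariate. Leading shares changed sign for Crybg2 (-4.11 points) and Ktn1 (-5.71) with coding transcripts merged, for Brap with PP mouse 7 kept (3.0) and for Ktn1 in TPM (-0.73). All coding transcripts together held 100% in every mouse for Dnaja4 and Ttbk1. Genes with a mean length at p below 0.05 fell from 1 to 0 in each of the 3 settings named for Ttbk1 (0.0683, 0.0522 and 0.117). The causes were not tested.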

Other observations

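PP mouse 7, which enters no comparison, had 66.8 CPM of Brap, 9.34 CPM of Ktn1, 18.1 CPM of Acsl3, 11.2 CPM of Tmem41b and 0.623 CPM of Crybg2, the last 2 below every other PP mouse. Its mean effective lengths were 92.6 bases for Ktn1, 511 bases for Brap and 537 bases for Acsl3, each below the lowest of the other PP mice, and 344 bases for Crybg2. Rgs12-201 held 86.6% of the Rgs12 reads in this mouse, and Ktn1-205 and Crybg2-213 held 0.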
